A study of Mus musculus with 36 samples.

Results

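Pparg, a nuclear receptor, was followed over the livers of 36 male mice. Beside it stood 6 genes of lipid uptake or synthesis, grouped here as its targets: Lpl, Vldlr, Cd36, Slc27a1, Slc27a2 and Mogat1. The genes were taken from the platform annotation of the Illumina MouseWG-6 v2.0 beadchip by symbol, so that every probe that names one of them was a member. This gave 7 of the 19057 genes named on the array and 16 of the 45281 probes with a detection p-value: 6 for Vldlr, 3 for Pparg, 2 each for Lpl and Slc27a2, and 1 each for Cd36, Slc27a1 and Mogat1. Of these, 11 probes of 6 genes had a detection p-value below 0.05 on at least 6 arrays and were tested among 17907 probes. The remaining 5 were detected on 0 of 36 arrays, and they include the only probe of Mogat1.

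All mice were 20 weeks old and had been on their diet for 13 weeks, with 6 mice for each diet. In 4 groups the feed drew 45% of its energy from fat and contained 20% by weight of freeze-dried açai, bilberry, blackcurrant or lingonberry. The high-fat group received 45% of energy as fat without berries, and the low-fat group 10%. The strain reads C57BL/6J in the sample labels and C57BL/6JBomTac in the series design, and no gene was altered. Mice of a diet are numbered 1 to 6 by the chip that held their array. A chip carried 1 array of each diet, and a diet always sat at the same place on the chip, so place and diet cannot be told apart.

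PPARγ, the protein made from Pparg, binds DNA together with a retinoid X receptor and is best known as the regulator of fat cell formation. In liver its messenger is scarce on a lean diet and is known to rise in fatty liver, where it switches on genes that take up and store lipid. Lipoprotein lipase, VLDL receptor, CD36 and the fatty acid transport proteins act at different steps of that uptake, and Mogat1 encodes an enzyme that builds diacylglycerol.

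Pparg lies at chr6:115360879-115490404 on the plus strand of GRCm38.p6 and starts from several promoters. The RefSeq table lists 3 of its start sites, and their windows from 250 bases before to 50 bases after the start are shown because the gene carried the largest diet differences of the 7. Capitals mark the nuclear receptor core site AGGTCA, searched on both strands, of which PPARγ with its partner binds a pair with 1 base between them.
Pparg start 1, chr6:115360894-115361193, plus strand: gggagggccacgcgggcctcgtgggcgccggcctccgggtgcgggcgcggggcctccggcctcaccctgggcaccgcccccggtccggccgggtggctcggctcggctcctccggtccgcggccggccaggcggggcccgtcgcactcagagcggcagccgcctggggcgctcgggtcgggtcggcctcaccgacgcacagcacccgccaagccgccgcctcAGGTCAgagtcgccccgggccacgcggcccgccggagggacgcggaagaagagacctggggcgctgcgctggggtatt
Pparg start 2, chr6:115362099-115362398, plus strand: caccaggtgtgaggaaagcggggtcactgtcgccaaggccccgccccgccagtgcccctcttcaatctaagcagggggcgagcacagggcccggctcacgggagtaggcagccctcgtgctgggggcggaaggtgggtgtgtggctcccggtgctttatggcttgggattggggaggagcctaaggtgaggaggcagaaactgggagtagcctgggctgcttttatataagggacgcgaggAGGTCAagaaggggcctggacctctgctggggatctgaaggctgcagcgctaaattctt
Pparg start 3, chr6:115421816-115422115, plus strand: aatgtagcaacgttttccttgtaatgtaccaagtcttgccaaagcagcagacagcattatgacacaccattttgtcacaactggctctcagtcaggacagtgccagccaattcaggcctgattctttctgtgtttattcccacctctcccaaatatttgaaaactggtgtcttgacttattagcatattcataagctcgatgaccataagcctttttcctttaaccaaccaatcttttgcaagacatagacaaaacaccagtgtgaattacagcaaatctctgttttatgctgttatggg
The first window holds AGGTCA once, with its first base at -28 from the start, and the second once, at -9. These letters were not found in the third window. Of all 32851 promoter windows in the table, 16.3% hold AGGTCA on at least 1 strand. The pair AGGTCANAGGTCA stands in 0.0396% of them and the looser AGGNCANAGGNCA in 0.381%, and neither stands in the windows of Pparg, Cd36, Mogat1, Vldlr, Slc27a1 and Slc27a2. Lpl was not searched here. The probes were not placed on the start sites, so the levels below are not assigned to any of them, and which transcripts each probe reads was not tested.

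The arrays were of even quality, with a median raw intensity between 81.2 and 103 and 14240 to 15670 probes detected. Levels are normalised log2 intensities, in which 1 unit is a doubling of the corrected brightness plus an offset of 16. Folds given for dim probes are therefore smaller than those of the corrected brightness itself. They are compared within a probe and never between probes. All 7 hepatocyte markers (Alb and Cps1 among them) were detected, and their mean level lay between 11.49 and 12.15 in every liver. Its median was 11.71 to 11.77 on the 5 diets with 45% fat and 11.95 on low fat, and Cps1 was called against low fat on all 5. Lingonberry liver 2 and low-fat liver 4 carried striated muscle transcripts, with a mean of the 7 markers of 7.78 and 7.02 against at most 4.84 elsewhere. Pancreatic acinar transcripts stood above a mean of 7 in 6 livers, namely açai 4 and 6, bilberry 2, blackcurrant 3, lingonberry 2 and low-fat 6. In a test for any difference between the 6 diets, 8 of the 11 member probes tested had an adjusted p below 0.05 (limma, moderated F test, Benjamini-Hochberg over all probes tested), against 8.03% of all probes. These were the 3 probes of Pparg, the 3 tested probes of Vldlr and the probes of Cd36 and Lpl. Slc27a1 (adjusted p = 0.692) and the Slc27a2 probes (0.668 and 0.127) missed the threshold. Without the 6 livers with pancreatic transcripts the adjusted p was 0.199 for Cd36 and 0.249 for Vldlr ILMN_1218264, and without both livers with muscle transcripts it was 0.13 for Lpl and 0.0579 for Vldlr ILMN_1218264. The calls of Lpl and of Vldlr ILMN_1218264 were also lost on leaving out single livers: low-fat 1, 3, 4 or 5 for Lpl (0.0535 to 0.0881), and açai 1, 4 or 6 or low-fat 1, 2, 3, 5 or 6 for the Vldlr probe (0.0509 to 0.081).

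**Figure D1:**
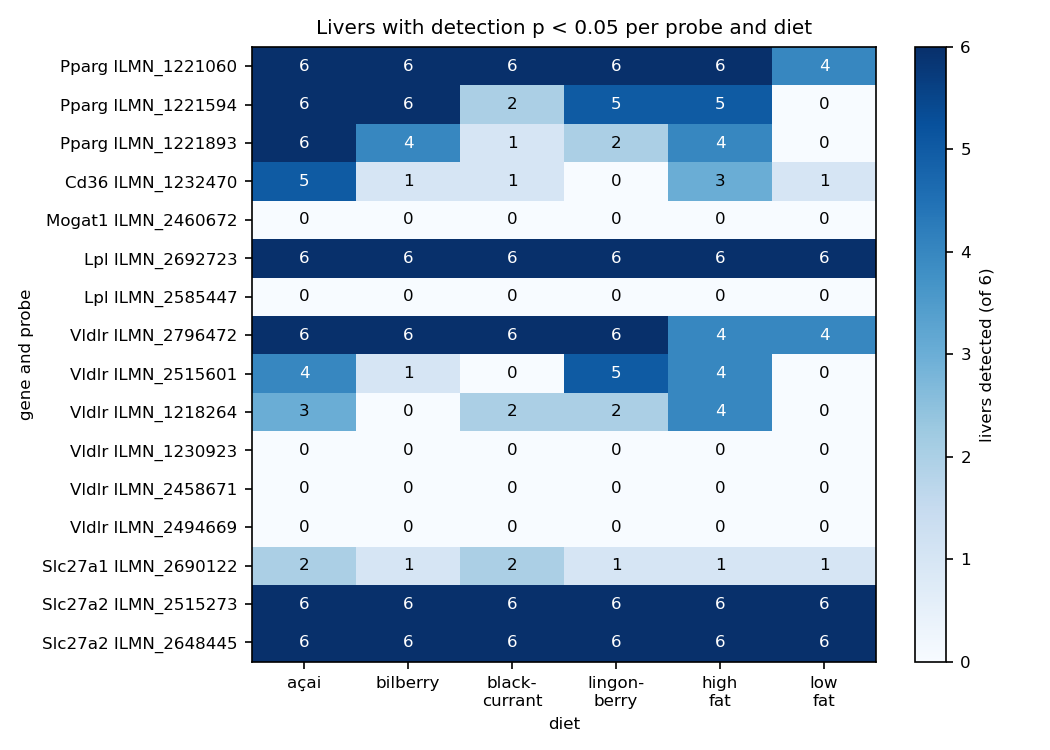
Number of livers, of 6 for each diet, in which each of the 16 probes had a detection p-value below 0.05. Mogat1 and 4 further probes are at 0 in all diets, while both Slc27a2 probes and 1 Lpl probe are at 6 throughout, and Pparg probe ILMN_1221594 runs from 6 in açai to 0 in low-fat livers.

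Pparg was the member that differed most between low fat and the diets with 45% fat. Its brightest probe, ILMN_1221060, was detected in 34 of 36 livers, all but low-fat livers 2 and 6, and had its lowest diet mean on low fat. The lowest, median and highest levels were 7.31, 7.52 and 7.89 on açai, 6.56, 7.52 and 7.77 on bilberry, 5.86, 6.63 and 7.01 on blackcurrant, and 6.88, 7.06 and 7.49 on lingonberry. They were 6.02, 6.75 and 7.22 on high fat and 4.57, 5.23 and 5.42 on low fat. All 30 livers on 45% fat lay above all 6 low-fat livers, with a gap of 0.44 between the closest. Açai and lingonberry livers were tightly grouped, whereas the bilberry livers split into 4 high ones and 2, mice 4 and 6, that lay inside the high-fat range.

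**Figure D2:**
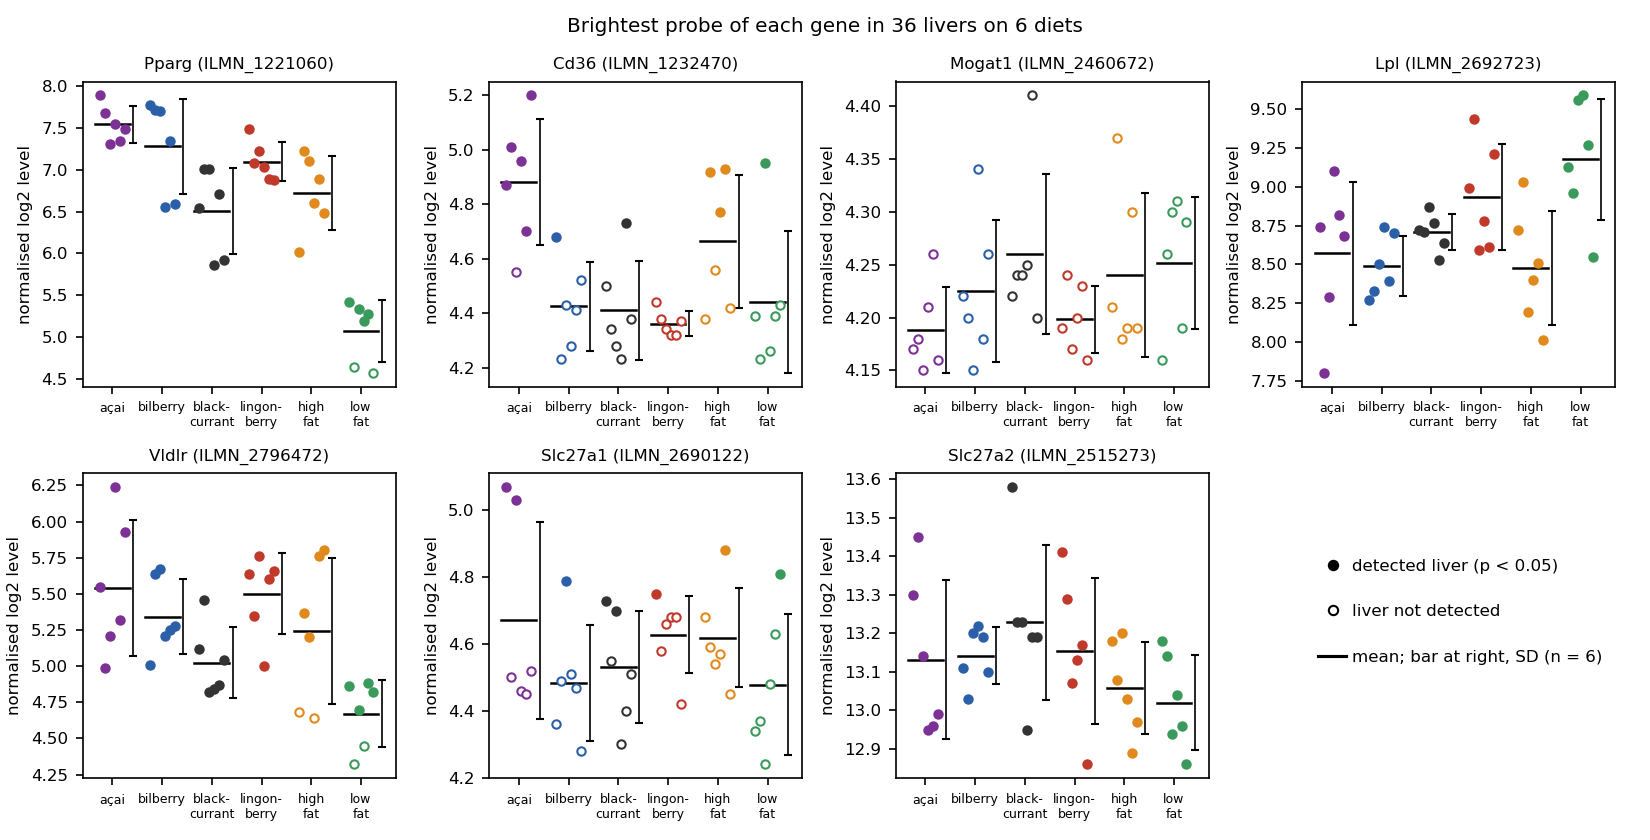
Normalised log2 level of the brightest probe of each gene in every liver, by diet, with filled points where the probe was detected, a line at the mean and a bar for the SD (n = 6). Pparg on low fat averages 5.07 and stands below all other diets, Lpl is highest on low fat at 9.18, and all Mogat1 points are open.

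High fat against low fat compared the 2 diets without berries. Feed with less of its energy from fat has more from other sources, and place on the chip differed too, so fat alone cannot be singled out. Pparg ILMN_1221060 averaged 6.72 ± 0.45 on high fat and 5.07 ± 0.37 on low fat (SD, n = 6 each), a rise of 1.65 ± 0.22 (standard error), or 3.14-fold, with a limma adjusted p of 6.78e-06. Low-fat livers 2 and 6 were not above background for this probe, so the fold is approximate. The difference was positive on 6 of 6 chips and ran from 0.60 to 2.58 within a chip. The ranges of the 2 diets did not overlap, which was so for 1.61% of all probes tested. In bulk tissue, fewer cells of a type and less RNA per cell cannot be told apart. Of the 11 probes, 3 were called higher and 1 lower in this comparison, against 1.97% of all probes called higher, 1.35% lower and 3.31% in either direction.

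The other Pparg probes also had their lowest mean on low fat. ILMN_1221594 was detected in 5 high-fat and 0 low-fat livers, with lowest, median and highest levels of 4.45, 4.98 and 5.46 on high fat against 4.22, 4.32 and 4.47 on low fat. Its rise of 0.68 ± 0.17 was called at a limma adjusted p of 0.0209, and as low-fat livers were not above background it is given as at least 1.27-fold. High-fat liver 1 was the only high-fat liver inside the low-fat range. This call was lost on leaving out high-fat liver 2 or 5 or low-fat liver 4 (adjusted p 0.0502 to 0.0738) or the arrays of chip 2, 4 or 5 (0.0732 to 0.129), and was 0.0532 without both livers with muscle transcripts. ILMN_1221893 was detected in 4 high-fat and 0 low-fat livers and differed by 0.40 ± 0.14, with an adjusted p of 0.124.

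Against low fat, the tested probes can be counted side by side, with the same low-fat livers in each comparison. Açai had 7 probes called higher and 1 lower by limma, against 3.79% of all probes called higher, 2.67% lower and 6.47% in either direction. Bilberry had 3 higher and 1 lower, against 1.11%, 0.503% and 1.61% of all. Blackcurrant had 1 higher and 0 lower, against 1.1% higher and 2.31% in either direction, and 5 probes at an unadjusted p below 0.05. Lingonberry had 5 higher and 0 lower, against 2.03% and 3.28%, and 6 at an unadjusted p below 0.05. Pparg had at least 1 probe among the calls on every diet. Lpl was the probe called lower on açai and bilberry.

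Each berry diet also stood above low fat for Pparg. For ILMN_1221060 the difference from low fat was 2.47 ± 0.22 for açai (5.55-fold, limma adjusted p 6.37e-10) and 2.21 ± 0.22 for bilberry (4.63-fold, 2.49e-08). It was 1.44 ± 0.22 for blackcurrant (2.71-fold, 0.000123) and 2.03 ± 0.22 for lingonberry (4.08-fold, 7.47e-08). Each difference was positive on 6 of 6 chips and each pair of ranges was apart, as for 3.1% of all probes on açai, 1.53% on bilberry, 1.15% on blackcurrant and 1.99% on lingonberry. These 4 comparisons and that of high fat share the same low-fat livers. Of these, 4 of 6 were above background for this probe, so the folds are approximate. The 5 calls were kept in all 54 alternative fits of each, with limma adjusted p up to 0.00535 for blackcurrant. The size was less steady, so the folds hold for the main fit. Over these fits the difference ran from 1.27 to 2.57 for açai, 1.11 to 2.38 for bilberry and 0.63 to 1.59 for blackcurrant. It ran from 0.97 to 2.11 for lingonberry and 0.75 to 1.86 for high fat.

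The other probes of Pparg were called against low fat on fewer of the berry diets. ILMN_1221594 was called higher than low fat on açai (1.66 ± 0.17, at least 2.5-fold, limma adjusted p 1.6e-08), bilberry (1.01 ± 0.17, at least 1.6-fold, 0.00041) and lingonberry (0.82 ± 0.17, at least 1.41-fold, 0.00335). On blackcurrant it differed from low fat by 0.40 with an adjusted p of 0.259. ILMN_1221893 was called higher than low fat on açai (0.90 ± 0.14, at least 1.46-fold, 4.25e-05) and bilberry (0.65 ± 0.14, at least 1.22-fold, 0.00957). Without the arrays of chip 1, 3 or 5, the bilberry call of ILMN_1221893 was lost, with adjusted p between 0.0536 and 0.0905.

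**Figure D3:**
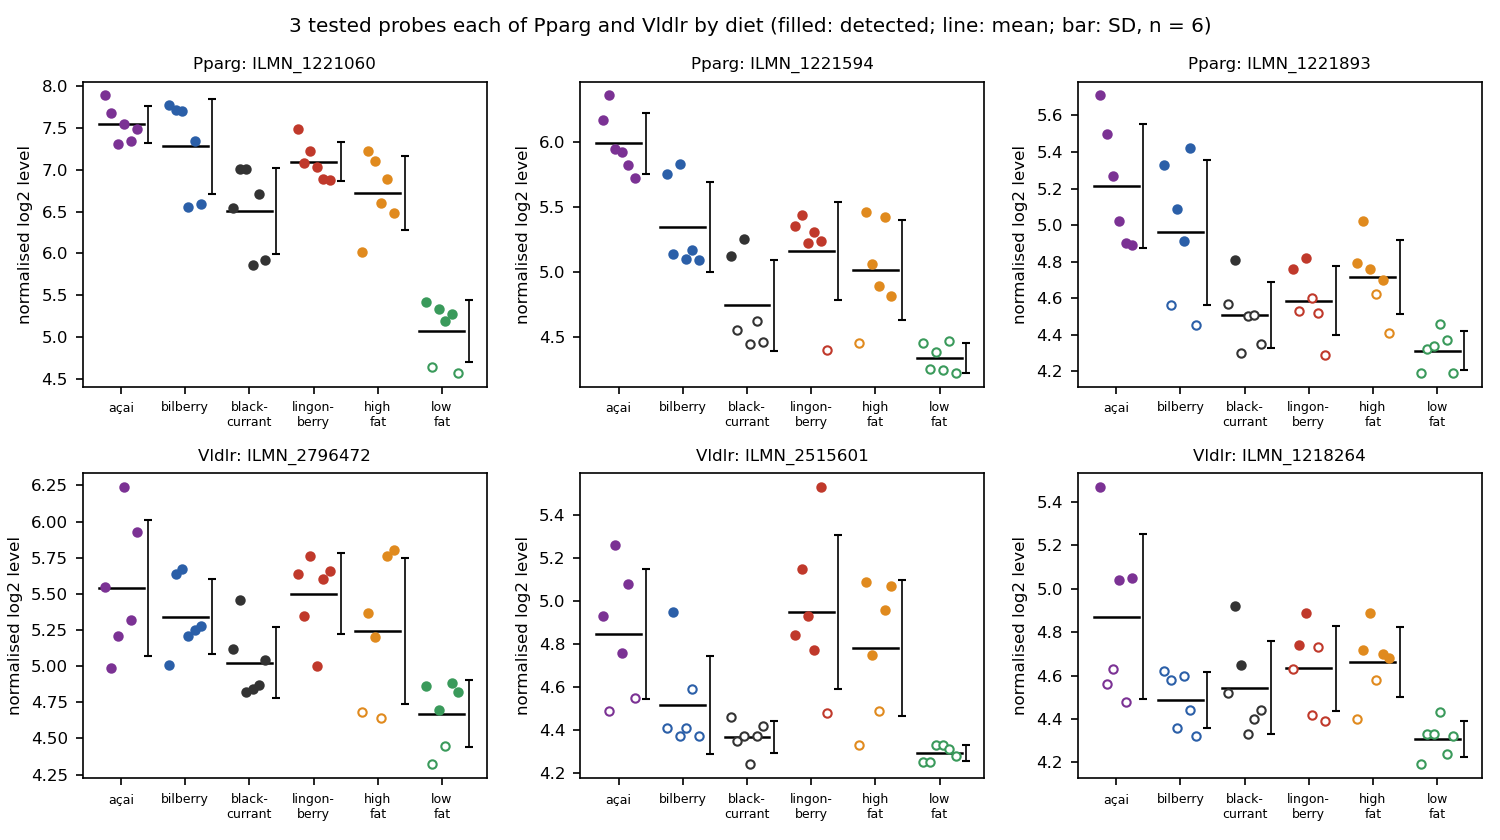
Normalised log2 level of the 3 tested probes of Pparg (top) and of Vldlr (bottom) in every liver, by diet, with filled points for detected livers, the mean and the SD (n = 6). Açai has the highest mean for every Pparg probe, and the low-fat livers have the lowest mean for all 6 probes, with 0 of 6 low-fat livers detected for 4 of them.

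Berry against high fat asked what each berry changed at the same share of fat. On açai 1 of the 11 probes was called, Pparg ILMN_1221594, which rose, against 0.0335% of all probes called higher and 0.0447% in either direction. Its lowest, median and highest levels were 5.72, 5.94 and 6.36 on açai and 4.45, 4.98 and 5.46 on high fat. The diets did not overlap, as for 0.413% of all probes, and the difference was 0.98 ± 0.17 (1.97-fold, limma adjusted p 0.0102), positive on 6 of 6 chips. ILMN_1221060 differed by 0.82 ± 0.22 and ILMN_1221893 by 0.50 ± 0.14, each positive on 6 of 6 chips, but their adjusted p-values were 0.202 and 0.249. The call of ILMN_1221594 was lost without açai liver 2 or high-fat liver 1 (adjusted p 0.0697 to 0.0715) or the arrays of chip 1 or 4 (0.115 to 0.193) and was 0.0768 when only the arrays of these diets were fitted.

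Of the 11 probes, 0 were called for bilberry, blackcurrant or lingonberry against high fat, where 0.38%, 0.134% and 2.25% of all probes were called by limma. At an unadjusted p below 0.05, bilberry had Pparg ILMN_1221060 (0.56, 95% interval 0.11 to 1.01). Blackcurrant had Cd36 (-0.25, -0.49 to -0.01) and Vldlr ILMN_2515601 (-0.41, -0.70 to -0.13). Lingonberry had Cd36 (-0.30, -0.54 to -0.06) and Lpl (0.46, 0.09 to 0.83). Their adjusted p-values ran from 0.196 for lingonberry Cd36 to 0.538 for blackcurrant Cd36. The 4 comparisons share the high-fat livers, so their differences are not independent of each other. For Pparg ILMN_1221060 the interval of the difference from high fat was -0.66 to 0.24 on blackcurrant and -0.07 to 0.83 on lingonberry.

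**Figure D4:**
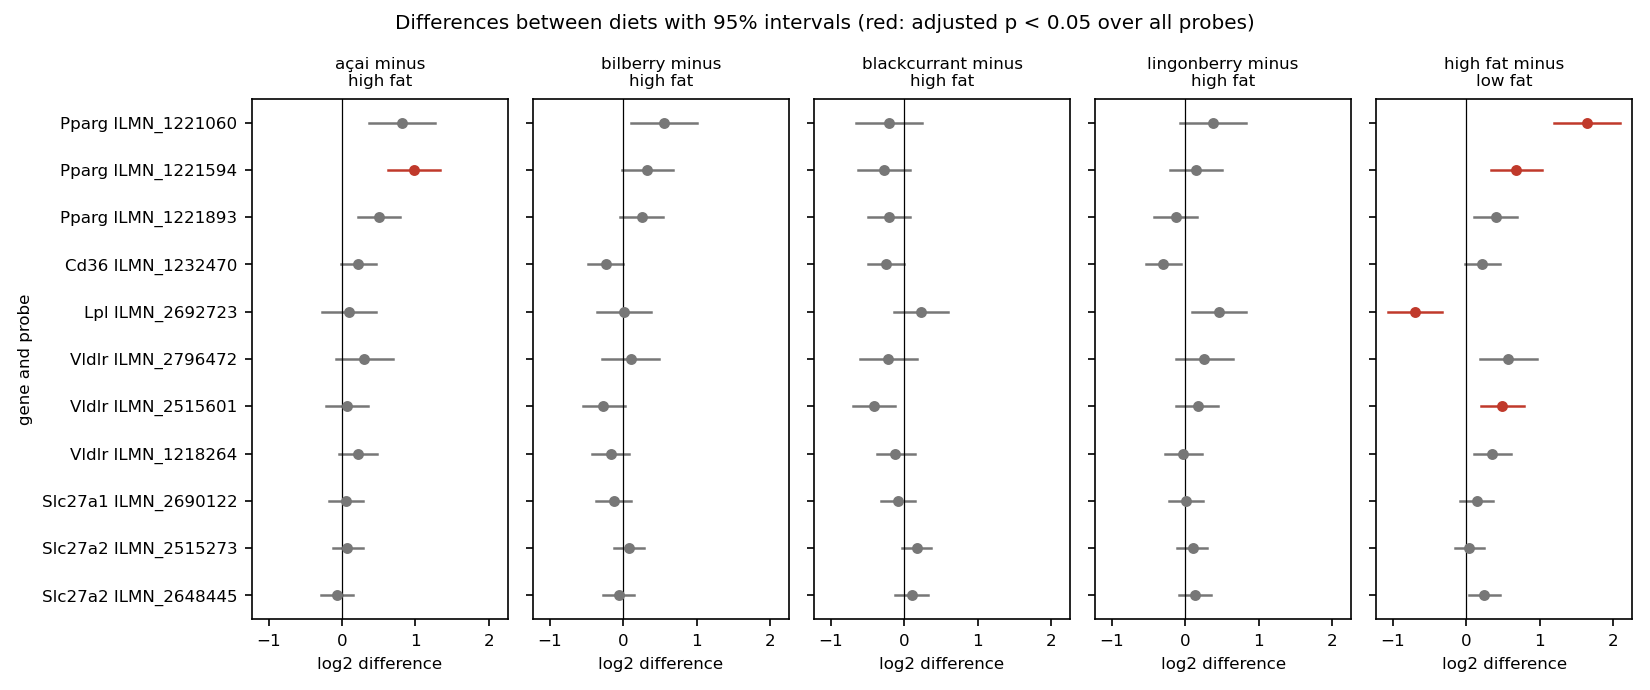
Log2 difference with its 95% interval for each of the 11 tested probes in the 4 berry diets minus high fat and in high fat minus low fat, red where the adjusted p was below 0.05. Pparg ILMN_1221594 is the only red point among the berry panels, at 0.98 for açai, and 4 red points stand in high fat minus low fat.

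Among the berries, açai stood highest for Pparg and blackcurrant lowest in all 3 probes. Açai exceeded blackcurrant by 1.04 ± 0.22 in ILMN_1221060, 1.25 ± 0.17 in ILMN_1221594 and 0.71 ± 0.14 in ILMN_1221893, with limma adjusted p-values of 0.00651, 2.05e-05 and 0.00364. In each of these the ranges of the 2 diets did not overlap, which was so for 1.42% of all probes, and 4 of the 11 probes were called against 1.76% of all. The call of ILMN_1221060 was lost without the arrays of chip 4 (adjusted p 0.0757). Açai exceeded lingonberry in ILMN_1221594 by 0.83 ± 0.17 (adjusted p 0.00333) and in ILMN_1221893 by 0.63 ± 0.14 (0.00739), with 3 of 11 probes called against 3.35% of all. In no alternative was either of these lost.

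Between açai and bilberry 0 of the 11 probes were called by limma, against 0.771% of all. ILMN_1221594 of Pparg differed most, by 0.64 with an adjusted p of 0.0702, and was called with the chip as a block in the fit (0.0258) and on leaving out bilberry liver 3 or lingonberry liver 6 (0.0246 to 0.0354). Cd36 differed by 0.45 with an adjusted p of 0.0543. At an unadjusted p below 0.05 there were 4 probes, the other 2 being Vldlr ILMN_2515601 and ILMN_1218264. Bilberry against blackcurrant and lingonberry against bilberry also had 0 of 11 probes called by limma, against 0.212% and 0.246% of all, with 3 probes each at an unadjusted p below 0.05. For bilberry against blackcurrant these were the 3 probes of Pparg, with differences of 0.77, 0.61 and 0.45.

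In the order of diet means for ILMN_1221060, from açai (7.54) over bilberry (7.28), lingonberry (7.10), high fat (6.72) and blackcurrant (6.51) to low fat (5.07), blackcurrant and low fat were the only neighbours that differed beyond their spread. For ILMN_1221594 and ILMN_1221893 none of the 5 steps between neighbours was called. Açai was first, bilberry second, blackcurrant next to last and low fat last for all 3 probes. Lingonberry and high fat changed places between the first 2 probes and ILMN_1221893.

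The probes of Pparg followed each other across livers. Since low-fat livers formed a group of their own for ILMN_1221060, correlations are given within the 30 livers on 45% fat. There ILMN_1221060 correlated with ILMN_1221594 at r = 0.80 (permutation p 1e-05, the smallest that 100000 permutations can give, adjusted 3.5e-05 over 7 probe pairs; Spearman's rho 0.79, permutation p 1e-05). It correlated with ILMN_1221893 at r = 0.65 (permutation p 0.00011, adjusted 0.000257, rho 0.70, p 5e-05). ILMN_1221594 and ILMN_1221893 gave r = 0.72 (permutation p 1e-05, adjusted 3.5e-05, rho 0.69, p 8e-05). Without the 2 livers farthest from the median of the first probe r was 0.76, 0.63 and 0.61. With diet means alone subtracted, r was 0.63, 0.42 and 0.42 (adjusted permutation p 0.00112, 0.0472 and 0.0472). After diet and chip means were subtracted, r was 0.44, 0.16 and 0.15 with adjusted permutation p-values of 0.0546, 0.389 and 0.389, so the relation missed the threshold there.

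Adipocyte transcripts were looked at beside Pparg, since fat cells make much of it. Of 7 adipocyte markers 6 were on the array, and Plin1, Retn and Fabp4 were detected in 0 of 36 livers. Adipoq averaged 4.47 ± 0.12 on açai, 4.58 ± 0.22 on high fat and 4.63 ± 0.30 on low fat and was not called. The mean of the list ran from 4.77 to 5.06 on açai, 4.36 to 4.93 on high fat and 4.36 to 4.53 on low fat. It includes Cidea, which averaged 7.86 on açai, 5.47 on high fat and 4.38 on low fat. Cidea is also in the list of lipid droplet genes below, so the list mean does not measure fat cells. Cidea was the marker called against low fat, on açai and on high fat, and the part of fat cells in the Pparg levels was otherwise not tested.

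Lipoprotein lipase, which frees fatty acids from circulating triglyceride and is made mainly outside the adult liver, went the other way from Pparg. Its probe ILMN_2692723 was detected in all 36 livers. The lowest, median and highest levels were 7.80, 8.71 and 9.10 on açai, 8.27, 8.44 and 8.74 on bilberry, 8.53, 8.72 and 8.87 on blackcurrant, and 8.59, 8.88 and 9.44 on lingonberry. On high fat they were 8.01, 8.46 and 9.03, and on low fat 8.55, 9.20 and 9.59. Low fat had the highest mean, and its range overlapped that of every other diet.

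Lpl fell on high fat relative to low fat by 0.70 ± 0.18 (1.62-fold lower, limma adjusted p 0.0238), with the same sign on 5 of 6 chips. It also fell relative to low fat on açai, by 0.60 ± 0.18 (adjusted p 0.0372), and on bilberry, by 0.69 ± 0.18 (0.0395). On blackcurrant and lingonberry it was not called against low fat. Low-fat liver 4, which carried striated muscle transcripts, had the highest Lpl level of its diet (9.59), and lingonberry liver 2, the other such liver, the highest of its own (9.44). Without both livers, the difference from low fat was -0.52 on açai (adjusted p 0.0976), -0.61 on bilberry (0.109) and -0.62 on high fat (0.0669), so the sign and most of the size were kept while the 3 calls were lost. The part of muscle RNA in the Lpl levels was otherwise not tested.

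Single livers decided the Lpl calls. That of high fat was lost without high-fat liver 3 or 6 or low-fat liver 3 or 4 (adjusted p 0.0568 to 0.0771). That of açai was lost without açai liver 2, 3 or 6 or low-fat liver 1, 3, 4 or 5 (0.0506 to 0.125), and that of bilberry without bilberry liver 1, 2, 3 or 5 or low-fat liver 1, 3, 4 or 5 (0.0657 to 0.124). The difference kept its sign in every alternative fit and stayed between -0.85 and -0.56 for high fat. The second probe annotated to Lpl, ILMN_2585447, which was designed on the clone sequence AK089473 and not on the reference transcript, was detected in 0 of 36 livers.

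Vldlr, the receptor that binds triglyceride-rich lipoproteins at the cell surface, had 3 probes above background. The brightest, ILMN_2796472, was detected in 32 livers. Its lowest, median and highest levels were 4.99, 5.44 and 6.24 on açai, 5.01, 5.27 and 5.67 on bilberry, 4.82, 4.96 and 5.46 on blackcurrant, and 5.0, 5.62 and 5.76 on lingonberry. They were 4.64, 5.29 and 5.80 on high fat and 4.32, 4.76 and 4.88 on low fat. All açai, bilberry and lingonberry livers lay above all low-fat livers, whereas the high-fat livers were spread widely, with livers 1 and 4 inside the low-fat range, and blackcurrant livers overlapped low fat too.

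Vldlr ILMN_2796472 was called higher than low fat on açai, by 0.87 ± 0.19 (1.83-fold, limma adjusted p 0.00277), and on lingonberry, by 0.83 ± 0.19 (1.78-fold, 0.00758). Bilberry differed from low fat by 0.67 (adjusted p 0.0621), high fat by 0.57 ± 0.19 (0.0955) and blackcurrant by 0.35 (0.402). High fat against low fat was called for this probe on leaving out high-fat liver 1 or 4 (0.0369 to 0.0382). The bilberry difference was called on leaving out açai liver 4 or high-fat liver 1, 4 or 6 (0.0423 to 0.0498), and was 0.0199 in a fit of its 2 diets alone. The açai call was lost without the 6 livers with pancreatic transcripts (0.0728), among which açai livers 4 and 6 had the highest Vldlr levels of all 36, 6.24 and 5.93.

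The 2 dimmer Vldlr probes were detected in 0 low-fat livers. ILMN_2515601 had lowest, median and highest levels of 4.33, 4.86 and 5.09 on high fat against 4.25, 4.30 and 4.33 on low fat, with only the lowest high-fat liver reaching the low-fat range. It was called higher than low fat on high fat (0.49 ± 0.14, at least 1.08-fold, limma adjusted p 0.0443), on açai (0.56 ± 0.14, at least 1.13-fold, 0.0114) and on lingonberry (0.66 ± 0.14, at least 1.21-fold, 0.00408). The high-fat call was lost without any 1 of high-fat livers 2, 3, 5 and 6 or of the 6 low-fat livers (0.0536 to 0.121), and without the livers with muscle (0.0772) or pancreatic (0.0524) transcripts. ILMN_1218264 was called on açai alone among the 5 diets set against low fat, by 0.57 ± 0.13 (at least 1.15-fold, 0.00304). Without the livers with pancreatic transcripts, its adjusted p was 0.0645.

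Lingonberry exceeded blackcurrant in ILMN_2515601 of Vldlr by 0.58 ± 0.14 (at least 1.2-fold, limma adjusted p 0.0299), the only 1 of 11 probes called in that pair, against 0.983% of all. It was detected in 5 lingonberry livers and 0 blackcurrant livers, and the diets did not overlap, as for 0.927% of all probes. The call was lost without any 1 of lingonberry livers 2, 3 and 5 or blackcurrant livers 4 and 5 (0.0519 to 0.133). In the same probe, açai exceeded blackcurrant by 0.48 with an adjusted p of 0.0724, or 0.0428 with the chip as a block. Between livers on 45% fat the brightest Vldlr probe correlated with ILMN_2515601 at r = 0.45 and with ILMN_1218264 at r = 0.51, and these 2 with each other at r = 0.37 (permutation p 0.0129, 0.00417 and 0.0427, adjusted 0.015, 0.00584 and 0.0427). Spearman's rho was 0.49, 0.48 and 0.51 (permutation p 0.00711, 0.00826 and 0.00443), and r was 0.48, 0.45 and 0.41 without the 2 farthest livers. With diet means alone subtracted, r was 0.28, 0.42 and 0.22 (adjusted permutation p 0.212, 0.0553 and 0.292). With diet and chip means subtracted, r was 0.30, 0.52 and 0.29 (adjusted permutation p 0.252, 0.0438 and 0.252). These last p-values are too small, as the shuffle did not keep chips. The other 3 Vldlr probes, ILMN_1230923, ILMN_2458671 and ILMN_2494669, were detected in 0 livers although their annotation names the same transcript.

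Cd36 encodes a scavenger receptor that carries long-chain fatty acids across the plasma membrane and is abundant in fat cells, muscle and macrophages. Its promoter window in RefSeq (GRCm38.p6) is shown because it holds the core site, as windows of Pparg and Slc27a2 do. Here the site is on the opposite strand as TGACCT in capitals, its first base at -228 from the start. Slc27a2 has the same letters at -220, and the windows listed for Mogat1, Vldlr and Slc27a1 do not contain them.
Cd36, chr5:17835847-17836146, minus strand: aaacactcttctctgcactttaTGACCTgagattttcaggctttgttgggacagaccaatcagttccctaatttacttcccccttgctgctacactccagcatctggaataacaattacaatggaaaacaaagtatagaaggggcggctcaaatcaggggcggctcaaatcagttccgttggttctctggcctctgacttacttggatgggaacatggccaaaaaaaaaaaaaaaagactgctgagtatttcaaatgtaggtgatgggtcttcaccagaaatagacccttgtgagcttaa
The array has 1 probe for Cd36, ILMN_1232470, detected in 11 livers: 5 on açai, 1 on bilberry, 1 on blackcurrant, 0 on lingonberry, 3 on high fat and 1 on low fat. The lowest, median and highest levels were 4.55, 4.91 and 5.2 on açai, 4.23, 4.42 and 4.68 on bilberry, 4.23, 4.36 and 4.73 on blackcurrant, and 4.32, 4.36 and 4.44 on lingonberry. They were 4.38, 4.67 and 4.93 on high fat and 4.23, 4.39 and 4.95 on low fat. Açai livers were highest as a group and did not overlap with lingonberry livers, as for 2.71% of all probes, while the others lay near the detection limit.

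Cd36 rose on açai relative to low fat by 0.44 ± 0.12 (limma adjusted p 0.0174), to blackcurrant by 0.47 ± 0.12 (0.0271) and to lingonberry by 0.52 ± 0.12 (at least 1.15-fold, 0.00725). No fold is given against low fat or blackcurrant, where 1 of 6 livers each was above background. Against high fat, açai differed by 0.22 (95% interval -0.02 to 0.46, adjusted p 0.908), and high fat differed from low fat by 0.22 as well (-0.02 to 0.46, 0.368). Açai livers 6 and 4, which carried pancreatic transcripts, had 2 of the 3 highest Cd36 levels on açai, 5.2 and 4.96. Without the 6 livers with pancreatic transcripts, the adjusted p of the 3 calls was 0.184, 0.289 and 0.118, with the same sign.

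The Cd36 call of açai against low fat was also lost without açai liver 6 or low-fat liver 2 or 4 (0.0501 to 0.0627). The call against lingonberry was lost without the arrays of chip 6 (0.0501). That against blackcurrant was lost without açai liver 1, 2, 4 or 6 or blackcurrant liver 2, 3 or 4 (0.0518 to 0.0948). Macrophages can carry Cd36, so their markers were read beside it. Of 9 markers of Kupffer cells and macrophages 6 were tested and none was called against low fat, and their mean ran from 6.4 to 7.37 on açai and from 6.68 to 7.14 on low fat. Of 5 markers of lipid-associated macrophages 3 were tested and Gpnmb was called on açai. The mean of that list ran from 5.14 to 5.82 on açai and 4.88 to 5.36 on low fat, and its part in the Cd36 level was not tested.

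The fatty acid transport proteins moved little with diet. Slc27a2 encodes a very long-chain acyl-CoA synthetase and fatty acid transporter of hepatocytes. Both of its probes were detected in all 36 livers. ILMN_2515273 ranged from 12.95 to 13.45 on açai, 13.03 to 13.22 on bilberry, 12.95 to 13.58 on blackcurrant, 12.86 to 13.41 on lingonberry, 12.89 to 13.20 on high fat and 12.86 to 13.18 on low fat. The diets overlapped throughout, and the span of diet means was 0.21.

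ILMN_2648445 of Slc27a2 had lowest, median and highest levels of 12.01, 12.29 and 12.68 on lingonberry against 11.60, 11.94 and 12.29 on low fat, which overlap. It was called higher on lingonberry than on low fat by 0.37 ± 0.11 (1.29-fold, limma adjusted p 0.0423), whereas ILMN_2515273 differed there by less than its spread. This call was lost on leaving out any 1 of lingonberry livers 1 to 5 or low-fat livers 1, 3, 4, 5 and 6 (0.0503 to 0.126), and was 0.156 without both livers with muscle transcripts and 0.165 without those with pancreatic transcripts. Blackcurrant exceeded low fat by 0.34 with an adjusted p of 0.0855, or 0.0281 with the chip as a block, and 0.0351 without low-fat liver 2. High fat differed from low fat by 0.24 ± 0.11 (adjusted p 0.249). Across the 30 livers on 45% fat the 2 probes correlated at r = 0.61 (permutation p 0.00051, adjusted 0.000892), with a Spearman's rho of 0.55 (permutation p 0.00178). Without the 2 farthest livers r was 0.55. With diet means alone subtracted, r was 0.62 (adjusted permutation p 0.00112). With diet and chip means subtracted it was 0.53 (adjusted permutation p 0.00644, too small as the shuffle did not keep chips).

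Slc27a1 encodes the insulin-responsive transport protein of muscle and fat. Its probe ILMN_2690122 was detected in 8 livers, 2 each on açai and blackcurrant and 1 on each other diet. The lowest, median and highest levels were 4.45, 4.51 and 5.07 on açai, 4.45, 4.58 and 4.88 on high fat, and 4.24, 4.42 and 4.81 on low fat. The diets overlapped, and Slc27a1 was called in 0 of 15 comparisons by limma. High fat differed from low fat by 0.14 (95% interval -0.09 to 0.37, limma adjusted p 0.612), and 0 of the 15 comparisons had an unadjusted p below 0.05.

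Mogat1 encodes monoacylglycerol acyltransferase, known as a gene that PPARγ raises in fatty mouse liver. Its probe ILMN_2460672 was detected in 0 of 36 livers, with a lowest detection p of 0.229, and its levels of 4.15 to 4.41 lay in the background of the array. The highest liver was a blackcurrant one. These arrays give no level for Mogat1 on any diet, and it was not tested.

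Pparg was then set against the other members over single livers. Within the 30 livers on 45% fat, Pparg ILMN_1221060 correlated with Vldlr at r = 0.46 (permutation p 0.0104, Spearman's rho 0.37 with permutation p 0.0425) and with Cd36 at r = 0.40 (permutation p 0.0267, rho 0.36 with permutation p 0.0489). Adjusted over the 5 relations the permutation p-values were 0.052 and 0.0669. Without the 2 livers farthest from the median of Pparg, r was 0.39 and 0.33. With diet means alone subtracted, r was 0.27 and 0.36 (adjusted permutation p 0.267 and 0.222). With diet and chip means subtracted, r was 0.47 and 0.45, each with an adjusted permutation p of 0.0443. That shuffle kept diets but not chips, which makes its p-values too small, so they are not read as calls.

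The remaining relations of Pparg were weaker. It correlated within the 30 livers with Lpl at r = -0.11 (permutation p 0.56, adjusted 0.586, rho -0.12 with p 0.521), with Slc27a1 at r = 0.29 (permutation p 0.126, adjusted 0.209, rho 0.18 with p 0.346) and with Slc27a2 at r = 0.10 (permutation p 0.586, adjusted 0.586, rho 0.12 with p 0.512). Without the 2 farthest livers r was -0.10, 0.17 and 0.04. With diet and chip means subtracted, r was 0.09, 0.00 and -0.15 (adjusted permutation p 0.80, 0.985 and 0.68).

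**Figure D5:**
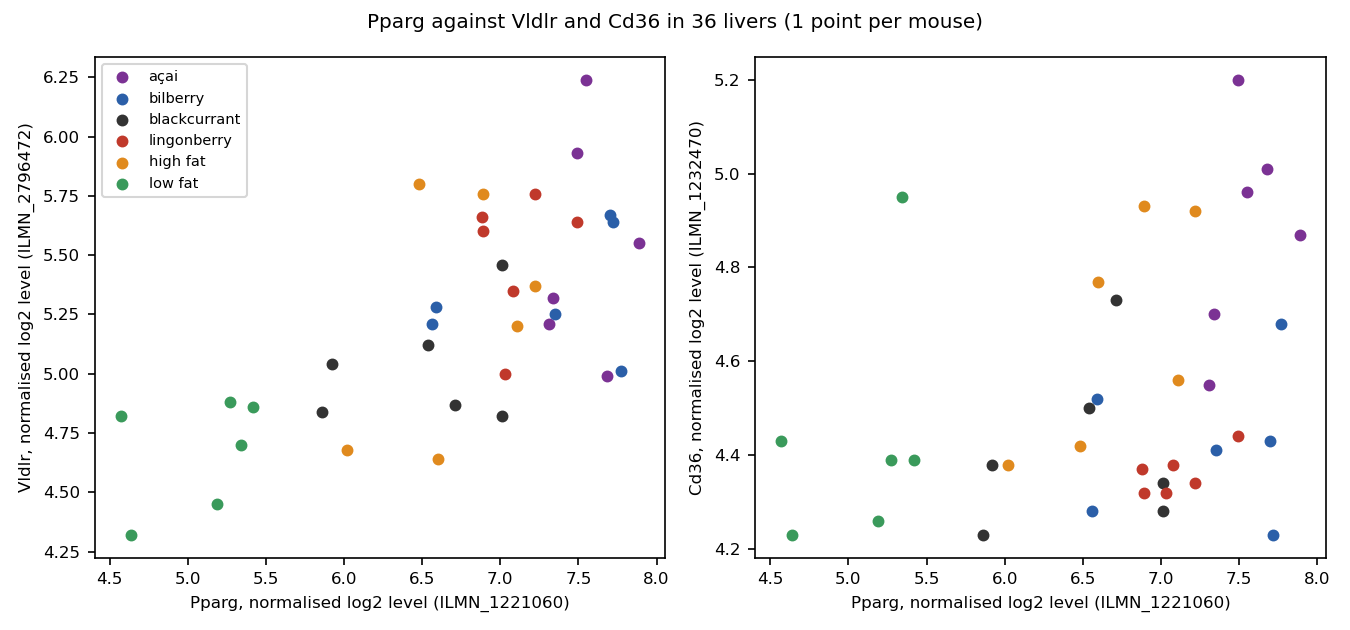
Normalised log2 level of Vldlr (left) and of Cd36 (right) against that of Pparg in each of the 36 livers, coloured by diet. The low-fat livers stand apart on the left at Pparg levels up to 5.42, and within the livers on 45% fat r was 0.46 for Vldlr and 0.40 for Cd36.

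The genes whose levels ran most like those of each member were ranked by Pearson's r over the 36 arrays, given as a description. For Pparg they were Entpd5 (r = 0.91), Aldh3a2 (0.89), Abcc3 (0.86), Nln (0.85) and Tpm2 (0.84). These values include the gap between low-fat and other livers, and with diet means subtracted r was 0.59, 0.38, 0.46, 0.57 and 0.41. For Cd36 they were Anxa2 (0.82), Mcm5 (0.78), Apoa4 (0.77), Haus8 (0.76) and Anxa5 (0.75), and for Vldlr Cyp2c38 (0.80), Creg1 (0.78), Acot3 (0.77), Tmem98 (0.77) and Spc25 (0.76). With diet means subtracted, r lay between 0.51 and 0.66 for the first 5 and between 0.58 and 0.63 for the second.

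For Lpl the most similar were Tut7 (0.65), Appl1, Tuba8, Smad1 and Lbh (0.64 each). For Slc27a1 they were C2cd5 (0.65), Tafa2 (0.64), Chmp1b (0.63), Ap1ar (0.60) and Pign (0.56), and for Slc27a2 Aox3 (0.70), Nol6 (0.69), Anxa11 (0.69), Slc31a1 (0.68) and Igfbp4 (0.67).

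Genes listed as PPARγ targets or as lipid droplet genes were read beside Pparg as a description. The list was chosen with earlier results of these data known. It held 24 names, Cidec and Fsp27 being names of the same gene, of which 18 were tested. On high fat 5 were called higher than on low fat by limma and 0 lower, against 1.97% and 1.35% of all probes. The median difference was 0.19 against -0.004 over all probes tested. Plin4, a coat protein of droplets, rose by 1.82 ± 0.29 (adjusted p 8.72e-05) and Lgals1, a galectin, by 2.10 ± 0.24 (3.35e-07). Acaa1b, a peroxisomal thiolase, rose by 0.64 ± 0.14 (0.00378). Cidea, which enlarges droplets, rose by 1.09 ± 0.32 (0.0495), or at least 1.74-fold, as it was detected in 0 low-fat livers. Its relative Cidec, named because it completes the count, rose by 1.68 ± 0.47 (0.0365).

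Calls in that list varied between the berry diets, which were not set against each other for its genes. On açai Cidea rose further, averaging 7.86 ± 0.66 against 5.47 ± 1.15 on high fat (SD, n = 6 each), a difference of 2.39 ± 0.32 (limma adjusted p 6.73e-05), and the list's median difference from high fat was 0.29. Plin4 fell relative to high fat by 1.40 ± 0.29 on bilberry (0.0169) and by 1.15 ± 0.29 on lingonberry (0.0213). On blackcurrant it differed by -1.22 ± 0.29 and was not called (0.0704). Lgals1 fell by 1.22 ± 0.24 on blackcurrant (0.0279). On lingonberry (-0.83, 0.0523) and bilberry (-0.52, 0.574) it was not called. Cidea differed by -1 on bilberry (0.226), -0.96 on lingonberry (0.113) and -1.02 on blackcurrant (0.226), not called on any of them. The list's median difference from high fat was -0.13 on bilberry, -0.02 on lingonberry and -0.06 on blackcurrant. Pparg itself had no probe called against high fat on any of the 3.

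Of 23 listed partners and coregulators of PPARγ 18 were tested, and 0 were called by limma for high fat against low fat or for any berry against high fat, where 3.31% and 0.0447% to 2.25% of all probes were called, with medians between -0.13 and 0.06. At an unadjusted p below 0.05 there were 1 to 3 genes in each of these comparisons. Rxra, its main liver partner, named outside the rule after its values were seen, averaged 6.44 ± 0.29 on açai, 6.19 ± 0.19 on high fat and 6.13 ± 0.34 on low fat, with adjusted p-values of 0.941 for açai against high fat and 0.892 for high fat against low fat. Ppargc1b, a coactivator, was the only gene of the list called against low fat on any of the 5 diets, lower by 0.69 ± 0.18 on blackcurrant (0.0292).

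Of 13 other genes of fatty acid uptake 9 were tested, and 2 were called lower on high fat than on low fat by limma, against 1.35% of all probes. Fabp5, a fatty acid binding protein, averaged 5.19 ± 0.85 on high fat and 8.26 ± 0.56 on low fat (SD, n = 6 each). It fell by 3.07 ± 0.39 (adjusted p 2.62e-06), and it was called lower than low fat on all 4 berry diets too. Acsl5, an acyl-CoA synthetase, fell by 0.44 ± 0.12 (0.0364). The list's median was -0.17. For the berries against high fat 0 genes of it were called by limma, where 0.0447% to 2.25% of all probes were called. At an unadjusted p below 0.05 there were 0 to 2.

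Regulators of lipoprotein lipase and related lipases had 13 of 17 genes tested and 1 called on high fat against low fat, where 3.31% of all probes were called. This was Pcsk6, a proprotein convertase, which rose by 0.46 ± 0.13 (limma adjusted p 0.0459). Angptl4, which inactivates the lipase, averaged 10.94 ± 0.22 on high fat and 10.58 ± 0.58 on low fat and was not called (0.441). The list of relatives and ligands of the VLDL receptor also held regulators such as Atf4, Ddit3, Hif1a, Nfe2l2 and Mylip. It had 12 of 19 genes tested and 0 called by limma in the 9 comparisons with high or low fat. Of all probes, 0.0447% to 6.47% were called in these comparisons. In each, 1 to 3 genes of the list had an unadjusted p below 0.05. Of 16 genes of acylglycerol synthesis 14 were tested and 1 was called on high fat against low fat, with the same 3.31% of all probes. This was Gpat3, which makes lysophosphatidic acid and rose by 1.03 ± 0.14 (at least 1.73-fold, limma adjusted p 1.18e-05). The medians of these lists were -0.04, -0.22 and 0.00.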

How the data were processed

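Total RNA of whole liver was amplified, labelled with biotin and hybridised to mouse whole-genome beadchips of Illumina, as per the labels' protocols. The authors deposited raw bead intensities with a detection p-value for each probe and array, and a second table of normalised log2 values. The sources used here do not give how the authors normalised that table, which differed from the levels computed here by at most 0.013 over the 16 member probes. Symbols came from the platform annotation, which gave 1 symbol for 34885 probes and several for 18, and did not list 10378. A further 974 entries without detection p-values were left out.

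Intensities were background corrected and quantile normalised in R 4.3.3 by the neqc function (offset 16) of limma 3.58.1. The offset shrinks differences of dim probes. Probes with a detection p below 0.05 on at least 6 of 36 arrays, 17907 or 39.5%, were fitted with 1 mean per diet and moderated by eBayes, and p-values were adjusted by Benjamini-Hochberg over all of them in each of 15 comparisons. Intervals are at 95%. Where a probe was detected in 0 livers of a diet, the fold is a bound against the lowest signal among detected probes of each array, or the probe's own where higher. Correlation p-values came from 100000 two-sided permutations, within diets where diet means were subtracted. The shuffle did not keep chips, so p-values after chip means were subtracted are too small. Nothing in the labels says how mice were housed, so p-values measure the spread between these 36 livers, and the number of arrays limits their precision. The fit was tested on simulated data.

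All probes of the 7 genes were named, with the 5 genes most like each by Pearson's r and up to 4 genes of each list by smallest p. A gene with several probes entered a list through its brightest tested probe. The members and lists were chosen with earlier results of these data known. The labels give the chip and place of each array. Mice were numbered here by that chip, and arrays of the same chip were read as pairs. Deviations from diet means correlated with a median r of 0.11 over 90 pairs on the same chip and -0.03 over 450 pairs on different chips. The alternatives were other background corrections, filters, variance models and scaling, the chip as a block, a pancreatic covariate, and leaving out arrays or chips. Leaving out livers with muscle or pancreatic transcripts, above a marker mean of 7, was added after seeing the data. Plots were made in Python 3.11.15 using matplotlib 3.10.9.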

Additional observations from a re-analysis of the deposited data

Results flagged for a closer look

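Of 66 groups of 6 livers, 3 had a liver that stood far from the other 5 by Dixon's test, where chance flags about 1 in 20 groups. Pparg ILMN_1221594 was 4.40 in lingonberry liver 6, below the next lowest lingonberry liver at 5.22. Cd36 was 4.95 in low-fat liver 3, above the next at 4.43. Vldlr ILMN_2515601 was 4.95 in bilberry liver 2, above the next at 4.59, and that liver also carried pancreatic acinar transcripts at a marker mean of 8.39.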

How the results depend on the processing

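Of 173 single-probe results, 46 were called in the main setting or in at least 1 alternative. Over the 2468 alternative values of these 46, 2275 stayed on their side of the threshold, 167 lost a call, 26 gained one and 0 changed sign. Results called in no fit were left out before this count, and the F tests among the 46 have no sign. The count of sign changes therefore does not measure how steady directions were. The number of the 11 member probes called, 4 for high fat against low fat, was 1 with all probes tested, 1 without livers with muscle transcripts and 2 in a fit of both diets alone. For açai against high fat it was 0 instead of 1 in a fit of both diets alone. For blackcurrant against low fat it was 2 instead of 1 with the chip as a replicate block. Without livers with pancreatic transcripts it was 5 instead of 8 for açai against low fat, and 5 instead of 8 among pairs of berries. The block changed 3 single calls, given in the text, and no other. Leaving out each chip gave 1 to 4 calls for high fat against low fat, 0 to 1 for açai against high fat, and 5 to 7 for açai against low fat and for any diet difference. It gave 2 to 4 for bilberry, 1 to 1 for blackcurrant and 4 to 5 for lingonberry against low fat, and 5 to 9 among pairs of berries. Leaving out each array gave 1 to 5, 0 to 1, 6 to 8 and 6 to 8, then 3 to 5, 1 to 2, 4 to 5 and 6 to 9 in the same order. Cd36 between açai and bilberry was called on leaving out 6 single livers (adjusted p 0.0263 to 0.0493). Vldlr ILMN_2515601 on açai against low fat was lost without chip 1 or 3 (0.0538 to 0.0728). The causes were not tested. Most Vldlr, Cd36 and Slc27a1 values lay near background, which limits what the arrays can show. No other scaling moved the median of all probes by more than 0.015.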
